A study of Mus musculus with 38 samples.

Results

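Ube3a and the 2 annotated transcripts that run against it on the opposite strand, 9330162G02Rik and Snhg14, were described in the prefrontal cortex (PFC) and hypothalamus (Hypo) of WT and Ube3a2X mice. The 3 genes were taken by symbol from a table of 54165 genes, and in each tissue all 3 had enough reads to be tested. RNA was sequenced from 38 libraries of 25 adult FVB/NJ mice, 20 from the PFC and 18 from the Hypo. In the PFC there were 5 females and 5 males of each genotype, and in the Hypo 4 WT and 5 Ube3a2X mice of each sex. In Ube3a2X mice a C-terminally tagged Ube3a transgene was homozygous (2 copies) and came on top of the native gene. The controls were WT littermates, and no mouse was treated. Both tissues were sequenced in 13 of the mice, 9 Ube3a2X and 4 WT, and no library was dropped from a fit. Transgene reads and reads of the native gene fall on the same gene in the table and cannot be told apart. How much flanking sequence the transgene carries is not given in the sources used here.

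Ube3a encodes the ubiquitin protein ligase E3A, which attaches ubiquitin to target proteins and marks many of them for breakdown by the proteasome. In most neurons it is transcribed from the maternal chromosome alone, because the long antisense transcript that starts near Snrpn, of which Snhg14 is the annotated gene, runs through the paternal copy and silences it. Loss of the maternal copy causes Angelman syndrome, and extra maternal copies of the surrounding region are a cause of autism. The gene 9330162G02Rik is annotated only as a transcript still to be experimentally checked, and no function is known for it.

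On the GRCm38 genome with the GENCODE M21 annotation, Ube3a (ENSMUSG00000025326) lies at chr7:59228750-59311536 on the + strand, with 18 transcripts and 20626 exon bases in 16 blocks. 9330162G02Rik (ENSMUSG00000109536) is a single exon of 30942 bases at chr7:59223847-59254788 on the − strand, so it starts within the first part of Ube3a and ends upstream of the Ube3a start. It covers 26039 bases of the Ube3a gene and shares 1796 exon bases with it, 8.71% of the Ube3a exons, in 7 of the 16 blocks. Only 65 of those shared bases, 2.49% of the coding bases of Ube3a, are coding. Snhg14 (ENSMUSG00000100826) runs over chr7:59307924-59975759 on the − strand with 15 transcripts and 26093 exon bases in 65 blocks. It meets the 3' end of Ube3a over 3613 bases, where the exons of both share 1803 bases (8.74% of the Ube3a exons) and 0 coding bases. The antisense genes do not touch each other.

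**Figure D1:**
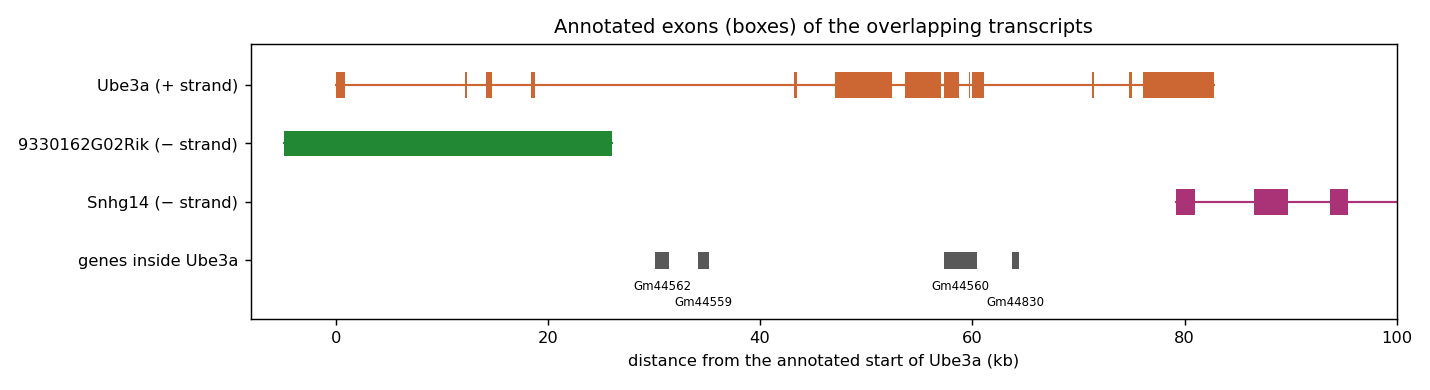
Annotated exons (boxes) and introns (lines) of the 3 transcripts and of the 4 short genes inside Ube3a, with the distance from the annotated Ube3a start in kb on the x axis and 1 gene or set of genes per row. 9330162G02Rik covers the 5' part of Ube3a and Snhg14 reaches its last exon from the right, where the axis stops before the end of Snhg14.

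The stretch just upstream of a gene's start shows how differently the members begin, and it is printed for the 2 members with an entry in the RefSeq promoter table (build GRCm38.p6). The Ube3a stretch is chr7:59228500-59228749 on the + strand, inside the exon of 9330162G02Rik, and the Snhg14 stretch is chr7:60450178-60450427 on the − strand, which is also the stretch given for Snrpn. Both run 5′ to 3′, with every CG in capitals.
Ube3a: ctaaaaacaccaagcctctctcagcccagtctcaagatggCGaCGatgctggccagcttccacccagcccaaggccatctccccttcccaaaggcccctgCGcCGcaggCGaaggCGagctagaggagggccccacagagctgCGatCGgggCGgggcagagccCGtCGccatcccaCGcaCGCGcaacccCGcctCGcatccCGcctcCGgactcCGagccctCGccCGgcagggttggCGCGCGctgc
Snhg14: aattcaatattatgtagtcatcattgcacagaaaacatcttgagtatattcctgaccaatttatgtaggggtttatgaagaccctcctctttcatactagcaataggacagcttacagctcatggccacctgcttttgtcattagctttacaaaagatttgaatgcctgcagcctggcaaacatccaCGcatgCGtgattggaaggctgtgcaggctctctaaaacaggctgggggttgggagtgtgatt
The 250 bases before Ube3a hold 24 CG and are 70.0% G or C, and 12% of 32851 promoters of the same length hold at least as many CG. The 250 bases before Snhg14 hold 2 CG and are 43.2% G or C, and 81.2% of promoters hold at least as many. CG reads the same on both strands and was counted once per site. On the − strand Snhg14 starts at chr7:59975759 in GENCODE. The RefSeq start, and so the printed stretch, lies upstream of that and outside the GENCODE span of the gene. 9330162G02Rik has no entry in that table and is named only.

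The libraries held 36.9 to 69.1 M counted reads in the PFC and 39.0 to 380.8 M in the Hypo. Levels are given in CPM, read counts scaled to the size of the library with TMM factors set over all 38 libraries. Marker genes of cortex summed to 1869 to 2410 CPM in the PFC and 7.04 to 17.4 CPM in the Hypo, and 10 marker genes of the hypothalamus to 487 to 2130 CPM in the Hypo and 0.727 to 2.0 CPM in the PFC. The library that stood apart was Hypo WT female 471, in which 3 pituitary hormone genes summed to 4860 CPM against a Hypo median of 96.2 CPM. It also had the highest sum of hypothalamus markers, the lowest sum of neuron markers (4989 CPM) and, among Hypo libraries, the most reads on the unexpected strand (4.28%). Its sum over the sex marker genes was 441 CPM, against 1017 to 1280 CPM in the other Hypo females. PFC Ube3a2X female 468 also stood apart, with the fewest counted reads, the highest neuron marker sum (15375 CPM) and the lowest ratio of 5' to 3' coverage (0.265) of the PFC libraries. PFC Ube3a2X male 258 had the highest sums of astrocyte (2232 CPM) and endothelium markers (292 CPM) of the PFC libraries. In the PFC that share was 4.42 to 7.55% in WT and 0.859 to 8.50% in Ube3a2X libraries. In bulk samples such as these, fewer cells of a type and less RNA per cell cannot be told apart.

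Ube3a itself, the gene carried by the transgene, ran from 2.88 to 9.39 times the WT mean over the 10 Ube3a2X PFC libraries, and from 2.67 to 6.20 times over the 10 Hypo libraries. WT female PFC libraries had 265, 190, 224, 202 and 248.9 CPM of Ube3a in mice 93, 259, 262, 395 and 397. WT males had 232, 219, 252, 223 and 238 CPM in mice 245, 251, 256, 266 and 403. The 10 WT libraries were close together, with the highest 1.40 times the lowest. Ube3a2X females had 969, 1553, 1385, 784 and 2154 CPM in mice 272, 417, 420, 462 and 468. Ube3a2X males had 1088, 1194, 770, 661 and 1060 CPM in mice 238, 253, 258, 267 and 402. No Ube3a2X library overlapped a WT library, and the highest of them, female 468, was 3.26 times the lowest, male 267.

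Hypo libraries of WT females had 354, 293, 275 and 110 CPM of Ube3a in mice 262, 398, 410 and 471. WT males had 291, 310, 313 and 266 CPM in mice 245, 251, 403 and 423. Female 471 was the lowest of these, and the other 7 were close together. Ube3a2X females had 1022, 1480, 1555, 1030 and 1658 CPM in mice 272, 417, 420, 462 and 468. Ube3a2X males had 1713, 1409, 738, 951 and 1016 CPM in mice 238, 253, 258, 267 and 404. Again no library of one genotype reached the other, and within Ube3a2X the highest was 2.32 times the lowest. The median Ube3a2X library was 4.68 times the WT mean in the PFC and 4.41 times in the Hypo.

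**Figure D2:**
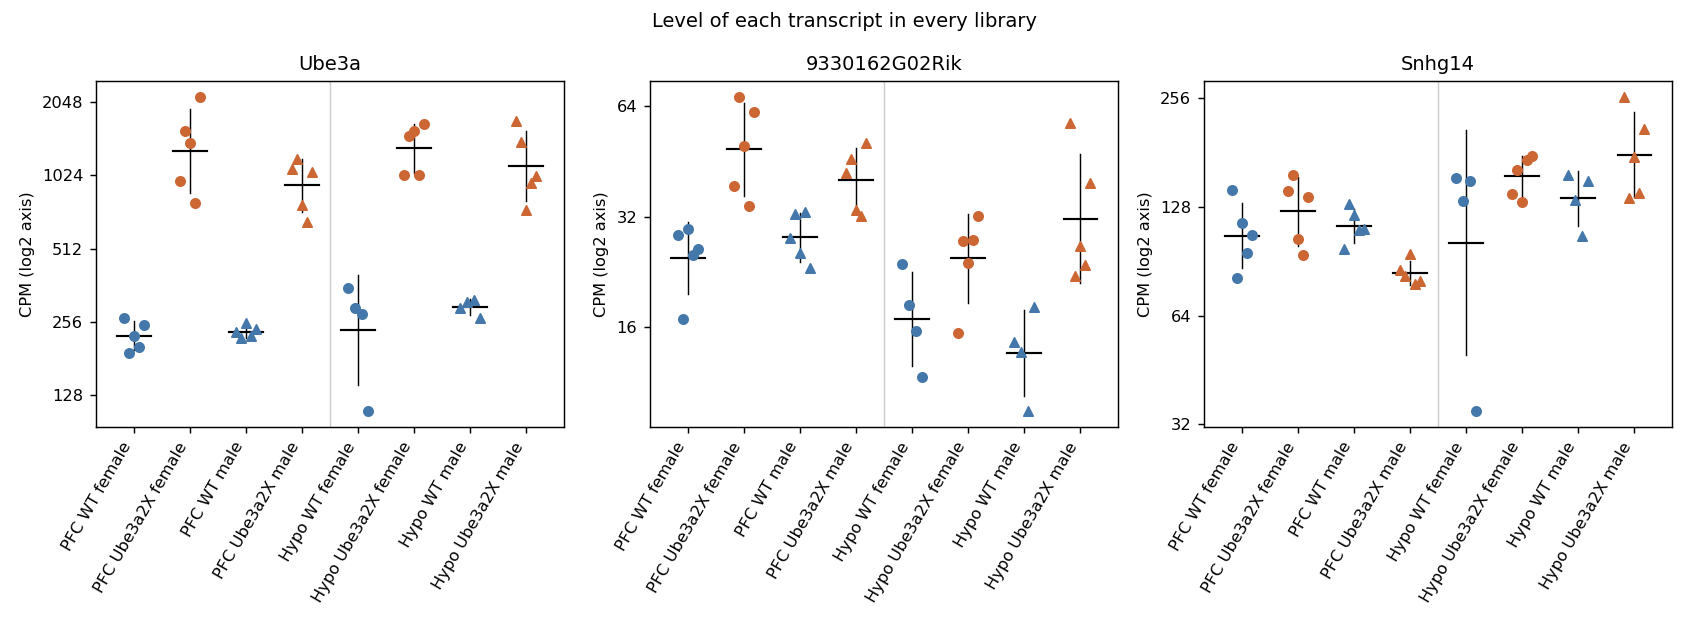
CPM (log2 axis) of Ube3a, 9330162G02Rik and Snhg14 in every library of the 8 groups, with circles for females, triangles for males, blue for WT and orange for Ube3a2X, and a bar and line for the mean and SD of log2-CPM. Ube3a separates the genotypes in both tissues, 9330162G02Rik separates them in part, and Snhg14 overlaps between genotypes except in PFC males, with Hypo WT female 471 far below the rest.

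Per base of exon, Ube3a was the most abundant member in all groups. In PFC WT females its mean level was 11 ± 1.53 RPKM (CPM per kb of exon, SD, n = 5), against 4.16 ± 0.880 RPKM for Snhg14 and 0.816 ± 0.163 RPKM for 9330162G02Rik. In PFC Ube3a2X females Ube3a had 66.4 ± 26 RPKM, Snhg14 4.86 ± 1.02 RPKM and 9330162G02Rik 1.63 ± 0.467 RPKM (n = 5).

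In the PFC the genotype effect on Ube3a, averaged over the sexes, was a log2 fold change of 2.34 (SE 0.158, adjusted p = 1.18e-06, edgeR quasi-likelihood test), and 2.23 without female 468 (adjusted p = 2.00e-07). Only 2 of the 10900 genes tested (0.0183%) were called at an adjusted p under 0.05, Ube3a and 9330162G02Rik. That count moved with the method, to 32 with DESeq2 and to 1 to 15 when each library was left out (15 without Ube3a2X male 258). In males the effect on Ube3a was 2.12 (adjusted p = 3.48e-04), where 0.0183% of genes were called, the other one being C730002L08Rik, which is no member and fell by 0.65 (adjusted p = 0.0193). DESeq2 called 239 genes in PFC males, and edgeR 1 to 26 with each library left out (26 without Ube3a2X male 253). In females it was 2.56 (adjusted p = 1.25e-04), and Ube3a was the single gene called (0.00917%), with 7 called by DESeq2 and 7 by edgeR without WT female 93. In the Hypo the effect averaged over the sexes was 1.97 (SE 0.175, adjusted p = 5.01e-04), and Ube3a was the single gene called of 11869 (0.00843%). It was 2.15 in Hypo females (adjusted p = 0.00583, 0.00843% of genes called). In Hypo males it was 1.79 (SE 0.242, adjusted p = 0.0612), where edgeR called 0 genes (0%), with 1084 genes at an unadjusted p under 0.05, 17 called by DESeq2 and 1 by limma-voom. Ube3a was past the threshold in Hypo males with both of those tools. In edgeR it passed with Ube3a2X 272, 462, 253 or 258 or WT male 403 each left out alone (adjusted p = 0.0148 to 0.0441). Over the alternative settings its adjusted p in edgeR reached 0.766. Without WT female 471 the Hypo effect averaged over the sexes was 1.99 (adjusted p = 0.00970) and that in females 2.15 (adjusted p = 0.0986), and the call in females was also lost without WT female 262, 398 or 410.

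The effect of genotype on Ube3a was not shown to differ between the sexes. The interaction, the effect in males minus that in females, was -0.44 (SE 0.310, adjusted p = 0.374) in the PFC and -0.36 (SE 0.302, adjusted p = 0.728) in the Hypo. With single libraries left out the PFC value ran from -0.65 to -0.10. It was -0.10 without Ube3a2X male 258, -0.23 without WT female 397 and -0.28 without Ube3a2X female 468. Over the alternatives the PFC value ran from -0.61 to -0.29. The latter had the share of intronic bases as a further covariate, an alternative chosen after the levels were seen. No member passed either test, and neither did another gene in edgeR (0% and 0%). In the PFC 2766 genes had an unadjusted p under 0.05, with 829 called by DESeq2 and 0 by limma-voom, and in the Hypo 872 genes had, with 0 called by either. With single libraries left out of the PFC, edgeR called 1723 genes without WT female 93, 1015 without Ube3a2X male 253 and 707 without Ube3a2X female 462. The difference of males from females, averaged over the genotypes, was -0.07 for Ube3a in the PFC (adjusted p = 0.926) and -0.21 in the Hypo (adjusted p = 0.53). No member was called for sex, in comparisons that called 0.0917% and 2.33% of genes.

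In order of mean log2-CPM, the 4 Ube3a2X groups came first, from Hypo females (10.37 ± 0.34, SD, n = 5) through PFC females (10.33 ± 0.57), Hypo males (10.12 ± 0.48) and PFC males (9.86 ± 0.37). The WT groups followed, from Hypo males (8.20 ± 0.11, n = 4) through Hypo females (7.88 ± 0.75, n = 4) and PFC males (7.86 ± 0.08, n = 5) to PFC females (7.81 ± 0.20, n = 5). The step from PFC Ube3a2X males to Hypo WT males was 1.66 with no overlap between the groups. Its exact two-sided permutation p was 0.00794, the smallest that 5 against 4 libraries allow, and 0.0556 after adjustment over the 7 steps. The other steps were 0.02 to 0.32, with exact permutation p from 0.381 to 0.968. Without Hypo WT female 471 the Hypo WT females averaged 8.25 ± 0.19 (n = 3) and came before the Hypo WT males. With 7 steps and groups of this size a lone step could not pass after adjustment, whatever its size. The test took the libraries as unpaired, although the Hypo and PFC Ube3a2X females were the same 5 mice and the males shared 4. No neighbours were shown to differ after adjustment, although without Hypo WT female 262, 398 or 410 there were 2 such steps.

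The spread of the Ube3a dose was measured as the mean absolute deviation of log2-CPM from the median of the own group. In the PFC it was 0.349 among Ube3a2X and 0.108 among WT libraries, a difference of 0.24 (exact two-sided permutation p = 0.0287, 0.172 adjusted over 6 tests of spread). The adjusted p fell to 0.0217 without Ube3a2X female 420, 0.0253 without male 238, 0.0314 without male 253 and 0.0229 without male 402. In the Hypo it was 0.307 among Ube3a2X and 0.263 among WT libraries (exact permutation p = 0.828). Without WT female 471 the Hypo difference was 0.21, with an adjusted exact permutation p of 0.241. For the antisense genes the spread differed by at most 0.16 between the genotypes, with exact permutation p from 0.281 to 0.925. The Hypo value of Snhg14, -0.16, became 0.089 without WT female 471.

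9330162G02Rik, antisense to the 5' part of Ube3a, was higher in most Ube3a2X libraries, by far less than Ube3a. In the PFC it had 28.5, 16.8, 29.6, 25.1 and 26.1 CPM in WT females 93, 259, 262, 395 and 397. WT males 245, 251, 256, 266 and 403 had 28.0, 32.7, 25.4, 33.0 and 23.2 CPM. Female 259 was the lowest WT library and male 266 the highest. Ube3a2X females 272, 417, 420, 462 and 468 had 38.9, 68.0, 49.95, 34.2 and 61.7 CPM. Ube3a2X males 238, 253, 258, 267 and 402 had 42.3, 46.0, 33.5, 32.2 and 50.9 CPM. All but male 267 were above the highest WT library, so the genotypes overlapped by 1 library.

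In the Hypo its levels were 23.8, 18.5, 15.7 and 11.7 CPM in WT females 262, 398, 410 and 471. WT males 245, 251, 403 and 423 had 14.6, 13.7, 9.46 and 18.2 CPM. The lowest of the WT libraries was male 403, not female 471. Ube3a2X females 272, 417, 420, 462 and 468 had 15.5, 27.6, 23.9, 27.7 and 32.3 CPM. Ube3a2X males 238, 253, 258, 267 and 404 had 57.9, 22, 26.7, 23.7 and 39.5 CPM. WT female 262 was above 3 of the 10 Ube3a2X libraries, and male 238 stood highest of all.

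The PFC effect of genotype on 9330162G02Rik averaged over the sexes was 0.85 (SE 0.133, adjusted p = 0.0304, edgeR). The adjusted p ran from 0.00837 to 0.113 when each library was left out in turn, and the call was lost without any of 9 of the 20 libraries. These were Ube3a2X 417, 468, 238 and 253 and WT 259, 397, 251, 256 and 403, with effects of 0.80 to 0.87. It was also lost with edgeR's own filter on low counts (0.84, adjusted p = 0.0808) and with no such filter (0.79, adjusted p = 0.206). By sex it was 1.12 in females (adjusted p = 0.15) and 0.59 in males (adjusted p = 0.140). The difference between them was -0.52 (adjusted p = 0.222), or -0.14 with the intronic share as a covariate. With single libraries left out it ran from -0.69 to -0.34, the latter without Ube3a2X male 258. The value in females passed the threshold without Ube3a2X female 462 at 1.25 (adjusted p = 0.0291) and without WT female 93 at 1.27 (adjusted p = 0.0338). In the Hypo the effect was 0.84 (SE 0.183, adjusted p = 0.513), 0.36 in females (adjusted p = 1.0) and 1.33 in males (adjusted p = 0.403), with a difference of 0.97 (SE 0.335, adjusted p = 0.661). That difference was 0.51 without WT female 471, 0.36 with the intronic share as a covariate, and 0.46 with edgeR's own filter and 0.36 with no filter on low counts. Without WT female 471 the Hypo effect was 0.72 (adjusted p = 0.399). The Hypo value passed the threshold with DESeq2 at 0.84 (adjusted p = 0.0345). With the share of intronic bases as a further covariate, chosen after the levels were seen, the effect was 1.2 in the PFC (adjusted p = 0.00188) and 0.65 in the Hypo (adjusted p = 0.0286).

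Reads of Ube3a that landed on the unexpected strand would be counted for 9330162G02Rik where the exons of both overlap. Their number was estimated as the Ube3a reads times the shared part of its exons (8.71%) times the fraction of the library read on the unexpected strand. In the PFC the estimate averaged 1.29 CPM in WT and 4.0 CPM in Ube3a2X libraries, 1.69 to 16.9% of the 9330162G02Rik reads in the latter. After subtraction 9330162G02Rik had 15.6 to 31.8 CPM in WT libraries (mean 25.6) and 28.2 to 56.9 CPM in Ube3a2X libraries (mean 41.8). In the Hypo the estimate was 0.385 CPM in WT and 1.99 CPM in Ube3a2X libraries, and the means left were 15.3 and 27.7 CPM. The counts carry no positions, so the reads are taken as spread evenly over the exons. Exon lengths and overlaps, here and in RPKM, come from GENCODE M21. The paper names a Gencode release of another number for counting, and M21 was not shown to be the release behind the counts. If every Ube3a read on the unexpected strand lay in the shared part, these reads would come to 19.4 to 194% of the 9330162G02Rik reads in Ube3a2X PFC libraries.

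In 6 of the 10 Ube3a2X PFC libraries 0.859 to 2.57% of reads were on the unexpected strand, below every WT library, and they had 32.2 to 61.7 CPM of 9330162G02Rik. The other 4 had 6.08 to 8.50% on the unexpected strand and 33.5 to 68.0 CPM of 9330162G02Rik. These were females 272, 417 and 420 and male 258, so the share was not balanced between the sexes in Ube3a2X libraries. With the strand share as a covariate in edgeR, the effect on 9330162G02Rik was 0.80 and no longer called (adjusted p = 0.870). The 10 WT libraries all had over 4% on the unexpected strand. Against them, the 4 Ube3a2X libraries with over 4% differed by 0.80 on the log2 scale for 9330162G02Rik. The exact two-sided permutation p was 0.00298, the smallest that the 336 arrangements allow, and 0.00446 adjusted over 3 members. This choice of libraries was made after the shares were seen. Estimated Ube3a reads on the unexpected strand came to 6.29, 11.5, 7.33 and 5.31 CPM in mice 272, 417, 420 and 258, against a WT mean of 1.29 CPM. A like strand share did not make these reads alike, so the comparison cannot tell their part. No WT library had a share as low as the other 6, so within those no value can be had.

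Among genes enclosed in the span of another gene, the density of reads was a median 3.11% of the host's density for 162 genes on the opposite strand and 44.8% for 201 genes on the same strand.

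Snhg14, the antisense transcript of the paternal chromosome, overlapped between the genotypes in all but PFC males. In the PFC it had 143, 81.6, 115, 95.6 and 107 CPM in WT females 93, 259, 262, 395 and 397. WT males 245, 251, 256, 266 and 403 had 97.8, 130, 122, 110 and 111 CPM. Female 93 was the highest and female 259 the lowest of them. Ube3a2X females 272, 417, 420, 462 and 468 had 142, 157, 104, 94.0 and 137 CPM. Ube3a2X males 238, 253, 258, 267 and 402 had 85.9, 82.2, 95.1, 78.5 and 80.1 CPM. A single Ube3a2X library, female 417, was above the highest WT library, and all 5 Ube3a2X males were below all 5 WT males. The share of intronic bases separated these males too, at 3.10 to 4.0% in Ube3a2X and 4.40 to 5.85% in WT libraries. Unexpected-strand reads made up 0.859 to 1.82% in Ube3a2X males 238, 253, 267 and 402, against 4.84 to 7.36% in WT males. Male 258, with the most Snhg14 of the Ube3a2X males, had 7.92%. Estimated Ube3a reads on Snhg14 were 1.02 to 5.61% of its reads in Ube3a2X males and 0.712 to 1.38% in WT males. Their part in the Snhg14 difference was not tested.

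In the Hypo, Snhg14 had 154, 133, 151 and 34.8 CPM in WT females 262, 398, 410 and 471. WT males 245, 251, 403 and 423 had 157, 134, 106 and 151 CPM. Female 471 was far below the other 7 WT libraries, which lay between 106 and 157 CPM. Ube3a2X females 272, 417, 420, 462 and 468 had 139, 162, 132, 173 and 177 CPM. Ube3a2X males 238, 253, 258, 267 and 404 had 258, 136, 176, 140 and 210 CPM. The highest WT library was exceeded by 6 of the 10 Ube3a2X libraries, and the groups overlapped.

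The genotype effect on Snhg14 was -0.08 (SE 0.0783, adjusted p = 0.818) in the PFC and 0.19 (SE 0.0851, adjusted p = 0.949) in the Hypo, or 0.15 in the Hypo without WT female 471 (adjusted p = 0.748). The PFC value changed sign with the intronic share as a covariate (0.11), without WT female 93 (0.01) and over the libraries with more than 4% of reads on the unexpected strand (0.15). By sex it was -0.35 in PFC males (adjusted p = 0.137), or -0.0038 with the intronic share as a covariate (adjusted p = 1.0). It was 0.19 in PFC females (adjusted p = 0.431), with 0.0081 without WT female 397, 0.10 without Ube3a2X female 417 and 0.40 without WT female 93. It was 0.26 in Hypo males (adjusted p = 0.542) and 0.12 in Hypo females (adjusted p = 1.0). The PFC difference between the sexes was -0.53 (SE 0.155, adjusted p = 0.0943). That difference passed the threshold with DESeq2 at -0.55 (adjusted p = 0.0286), without WT female 93 at -0.78 (adjusted p = 0.0186) and without Ube3a2X female 462 at -0.65 (adjusted p = 0.0437). It was smaller, at -0.23, with the intronic share as a covariate (adjusted p = 0.473) and at -0.31 without WT female 397 (adjusted p = 0.758).

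Reads of the antisense genes were also set against Ube3a in the same library, which removes the scaling between libraries. The denominator is the gene carried by the transgene, so a lower ratio in Ube3a2X mice was fixed by its rise, and the ratios are given as descriptions with no test. In the PFC, 9330162G02Rik had 8.87 to 13.2 reads per 100 Ube3a reads in WT females and 9.75 to 14.9 in WT males, against 2.87 to 4.38 in Ube3a2X females and 3.85 to 4.88 in Ube3a2X males. Snhg14 had 43.0 to 53.8 and 42.2 to 59.4 reads per 100 Ube3a reads in WT females and males, against 6.35 to 14.6 and 6.88 to 12.4 in Ube3a2X females and males. The genotypes did not overlap in the PFC for either ratio.

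The mean log2 ratio of Ube3a2X minus WT was -1.51 for 9330162G02Rik and -2.37 for Snhg14 in the PFC. In the Hypo, 9330162G02Rik had 5.70 to 10.7 reads per 100 Ube3a reads in WT females and 3.02 to 6.83 in WT males, against 1.51 to 2.69 in Ube3a2X females and 1.56 to 3.89 in Ube3a2X males. The Hypo males overlapped. Snhg14 had 31.7 to 55.0 and 34 to 56.7 in WT females and males, against 8.51 to 16.8 and 9.63 to 23.9 in Ube3a2X females and males, with no overlap. The Hypo difference was -1.32 for 9330162G02Rik and -1.70 for Snhg14. With the estimated reads on the unexpected strand subtracted, chosen after the levels were seen, the ratio of 9330162G02Rik differed by -1.57 in the PFC and -1.39 in the Hypo.

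**Figure D3:**
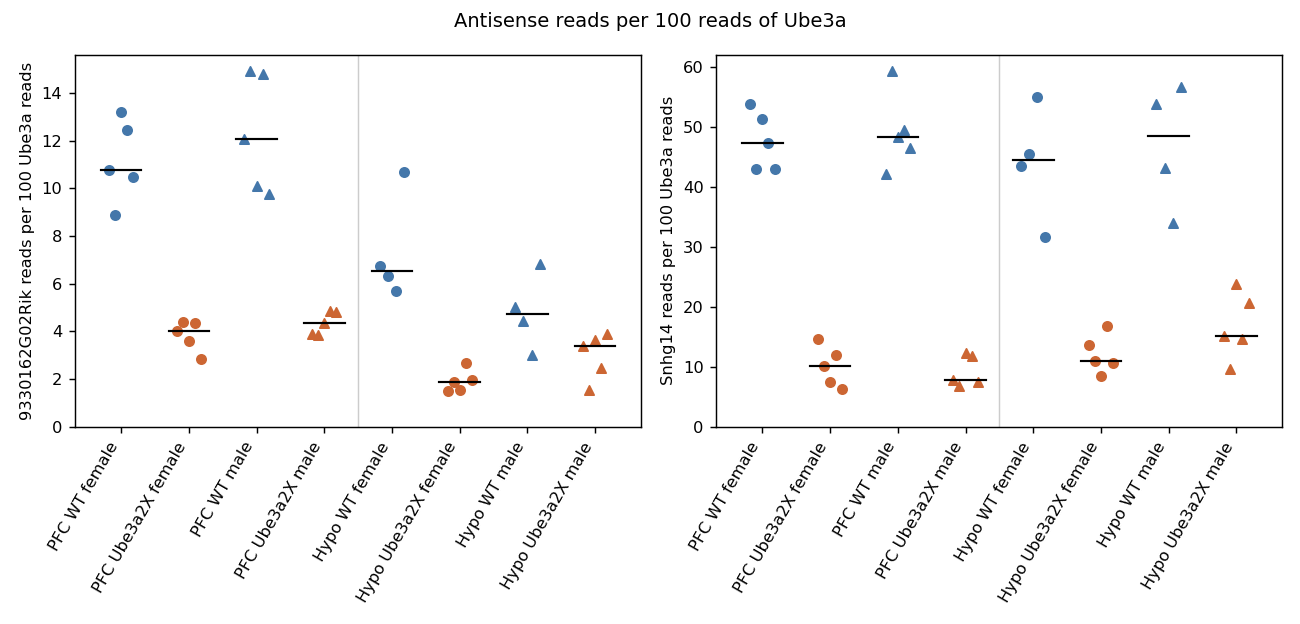
Reads of 9330162G02Rik (left) and Snhg14 (right) per 100 Ube3a reads in every library, with circles for females, triangles for males, blue for WT, orange for Ube3a2X and a bar for the median of each group. Ube3a2X libraries lie below WT libraries for both ratios, except that Hypo males overlap for 9330162G02Rik.

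Between the tissues the members differed in direction. Several other measures also differed between the tissues. RNA input was 500 ng in the PFC and 1000 ng in the Hypo, the median RIN 7.6 and 8.95, the median ratio of 5' to 3' coverage 0.442 and 0.735, and the median neuron marker sum 12041 and 5727 CPM. The median share of reads on the unexpected strand was 6.32% in the PFC and 1.56% in the Hypo. RIN was a covariate in the fit of all libraries, and without it the tissue difference of Ube3a in Ube3a2X mice went from -0.05 to 0.14. The part of the other measures was not tested. Over the 13 mice with both tissues, 9330162G02Rik was lower in the Hypo in 12 mice, by a mean of -0.78 ± 0.54 on the log2 scale (SD, exact two-sided sign-flip permutation p = 0.00146, 0.00659 adjusted over 6). Snhg14 was higher in the Hypo in 11 of 13 mice, by 0.52 ± 0.48 (exact permutation p = 0.00220, adjusted 0.00659). Ube3a was higher in 10 of 13 mice, by 0.26 ± 0.31 (exact permutation p = 0.0122, adjusted 0.0183). In the 9 Ube3a2X mice alone the differences were -0.70 ± 0.59 for 9330162G02Rik (adjusted exact permutation p = 0.0234), 0.63 ± 0.50 for Snhg14 (adjusted 0.0156, exact permutation) and 0.17 ± 0.32 for Ube3a (exact permutation p = 0.145). The Ube3a difference in these mice passed the threshold without female 468, at 0.24 (adjusted exact permutation p = 0.0391). Without TMM factors the differences in the 13 mice shifted up by 0.23, to -0.55 for 9330162G02Rik, 0.74 for Snhg14 and 0.49 for Ube3a, and none changed sign. In the 9 Ube3a2X mice that of Ube3a then became 0.41 (adjusted exact permutation p = 0.00938).

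Single mice stood out. Mouse 238, a Ube3a2X male, was the only one with more 9330162G02Rik in the Hypo, 57.9 against 42.3 CPM, and its Snhg14 was 258 CPM in the Hypo against 85.9 CPM in the PFC. The Snhg14 exceptions were Ube3a2X female 272, with 139 CPM in the Hypo and 142 CPM in the PFC, and WT male 403, with 106 and 111 CPM. For Ube3a they were Ube3a2X 258, 417 and 468, with 738, 1480 and 1658 CPM in the Hypo and 770, 1553 and 2154 CPM in the PFC. The Hypo library of mouse 238 had the highest share of intronic bases of all (9.52%), against 3.06 to 5.85% in the PFC.

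**Figure D4:**
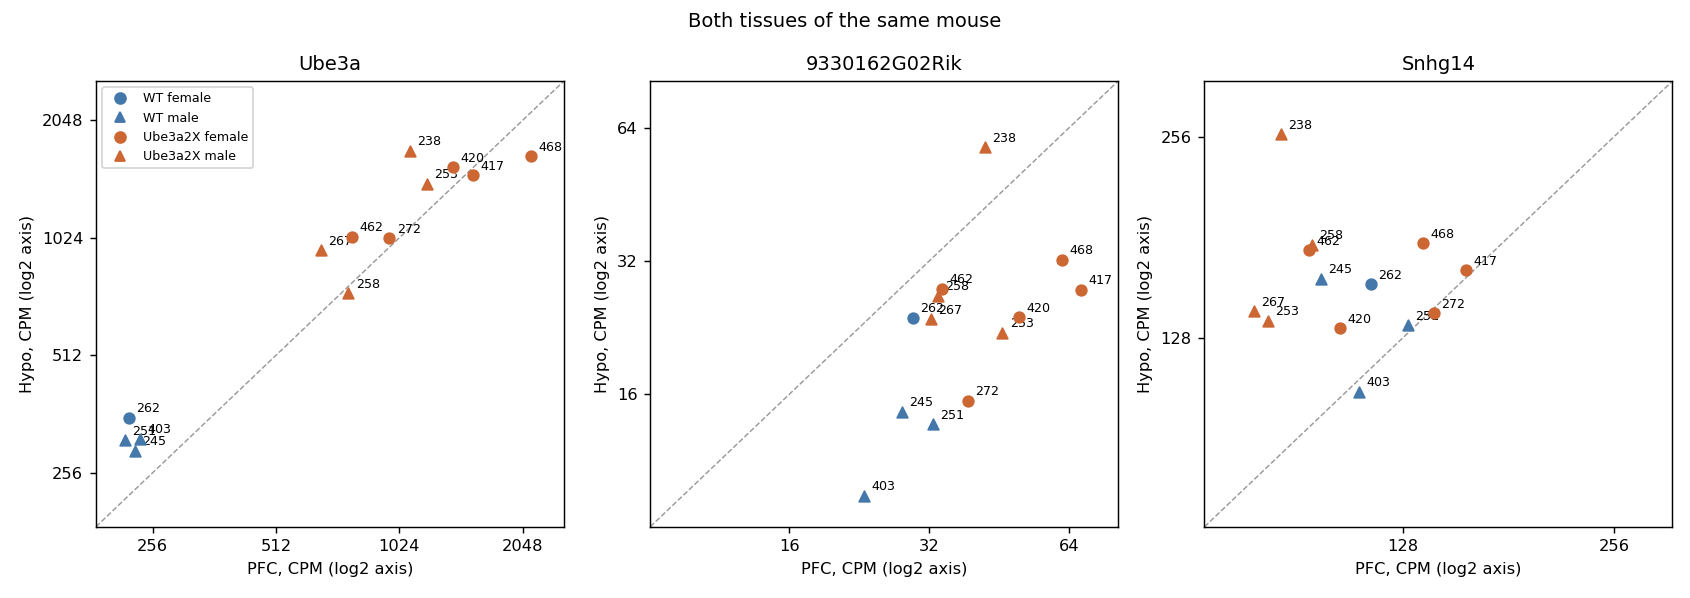
CPM in the PFC (x axis) and Hypo (y axis) of the 13 mice with both tissues, on log2 axes with mouse numbers, and a dashed line where the tissues are equal. Ube3a levels of the 9 Ube3a2X mice in the tissues had r = 0.81, 9330162G02Rik lies below the line in 12 of 13 mice, and Snhg14 lies above it in 11 of 13.

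In the edgeR fit of all 38 libraries with RIN as covariate, the Hypo minus PFC difference in WT mice was -0.78 for 9330162G02Rik (SE 0.209, adjusted p = 0.00155), 0.15 for Ube3a (adjusted p = 0.556) and 0.19 for Snhg14 (adjusted p = 0.406). So 1 of the 3 members was called, where 63.2% of 12494 genes were. In Ube3a2X mice it was -0.64 for 9330162G02Rik (adjusted p = 0.0238), 0.71 for Snhg14 (adjusted p = 0.0116) and -0.05 for Ube3a (adjusted p = 0.875), and 2 of 3 were called, where 59.5% of genes were. Intronic bases, 3.06 to 4.29% of bases in Ube3a2X PFC and 4.19 to 9.52% in Ube3a2X Hypo libraries, moved with the tissue. With it as a covariate, chosen after the levels were seen, the Ube3a2X difference of Snhg14 was 0.01 (adjusted p = 0.984) and that of 9330162G02Rik -1.61 (adjusted p = 2.97e-09). With the mouse as a block in the 13 mice, the replicate block, the Snhg14 value was 0.37 (adjusted p = 0.311).

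The calls between tissues in Ube3a2X mice were lost for 9330162G02Rik without PFC female 417 (-0.52, adjusted p = 0.0844) or female 468 (-0.57, adjusted p = 0.0614), and for Snhg14 without Hypo WT male 423 (0.61, adjusted p = 0.0770). In WT mice Snhg14 passed the threshold without Hypo WT female 471 (0.31, adjusted p = 0.0459). The genotype effect in the Hypo minus that in the PFC was -0.20 for Ube3a (SE 0.254, adjusted p = 0.889), 0.14 for 9330162G02Rik (SE 0.259, adjusted p = 0.925) and 0.51 for Snhg14 (SE 0.249, adjusted p = 0.627). With single libraries left out these ran from -0.36 (without Hypo WT female 471) to -0.07 (without PFC Ube3a2X female 468) for Ube3a. For 9330162G02Rik they ran from 0.0049 (without Hypo Ube3a2X male 238) to 0.23 (without Hypo WT female 262), and for Snhg14 from 0.33 (without Hypo WT female 471) to 0.59. With the intronic share as a covariate they were -0.39 for Ube3a, -0.55 for 9330162G02Rik and 0.035 for Snhg14, and with the replicate block -0.43, -0.02 and 0.25. None was called, and neither was any other gene by edgeR (0%), DESeq2 or limma-voom, with 987 genes at an unadjusted p under 0.05.

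The Ube3a dose of a Ube3a2X mouse in one tissue followed that in the other. Across the 9 Ube3a2X mice with both tissues, log2-CPM of Ube3a in the PFC and Hypo had Pearson r = 0.81 (exact permutation p = 0.00914, 0.0274 adjusted over the 3 members) and Spearman rho = 0.78 (exact permutation p = 0.0172, adjusted 0.0517). Without the 2 mice farthest from the PFC median r was 0.81, and within sex it was 0.81 (adjusted exact permutation p = 0.0448). The 5 of these mice with the most Ube3a in the PFC, females 468, 417 and 420 and males 253 and 238, were also the 5 highest in the Hypo. Leaving out each mouse gave r from 0.78 to 0.89 and adjusted exact permutation p from 0.0157 to 0.0621, with the call lost without 272, 420, 462, 468, 253 or 267.

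For the antisense genes such a relation was not past the threshold, and the difference in r from Ube3a was not tested. For 9330162G02Rik r was 0.16 and rho 0.27 (exact permutation p = 0.704 and 0.49), and for Snhg14 r was -0.10 and rho 0.00 (exact permutation p = 0.813 and 1.0). Without the 2 farthest mice r was 0.06 and 0.07. No correlation was computed over the 4 WT mice with both tissues. Their Ube3a levels were 232, 219, 224 and 238 CPM in the PFC and 291, 310, 354 and 313 CPM in the Hypo, in mice 245, 251, 262 and 403.

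Among the PFC libraries of Ube3a2X mice, 9330162G02Rik followed Ube3a. Across these 10 libraries r was 0.92 (permutation p = 1.40e-04, 8.40e-04 adjusted over 12 relations) and rho 0.92 (permutation p = 4.80e-04, adjusted 0.00576), and r was 0.93 without the 2 libraries farthest from the median. Within sex it was 0.91 (adjusted permutation p = 0.00366). With the estimated reads on the unexpected strand subtracted it was 0.88 (adjusted permutation p = 0.00438), and with the trend on the intronic share removed 0.95 (adjusted permutation p = 3.60e-04). Both of these alternatives were chosen after the levels were seen. In the 10 WT PFC libraries r was 0.42 (permutation p = 0.226), rho 0.09 (permutation p = 0.810) and r without the 2 farthest -0.34. The difference between the genotypes in r was not tested.

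Among the Hypo libraries of Ube3a2X mice, 9330162G02Rik followed Snhg14. There r was 0.92 (permutation p = 9.00e-05, adjusted 8.40e-04), rho 0.88 (permutation p = 0.00155, adjusted 0.00930) and r without the 2 farthest libraries 0.87. The Hypo libraries of males 238, 404 and 258, with the highest shares of intronic bases, held the 3 highest values among the males of both genes. With the trend on the intronic share removed, r was 0.25 (adjusted permutation p = 0.574). For Ube3a and 9330162G02Rik in the same libraries r was 0.35 (permutation p = 0.325, adjusted 0.356, rho 0.39, r without the 2 farthest 0.14). That r became 0.77 (adjusted permutation p = 0.0243) once the trend was removed.

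Of the other 8 relations, none passed after adjustment in the main setting. In PFC WT libraries Ube3a and Snhg14 had r = 0.74 (permutation p = 0.0140, adjusted 0.0559) and rho = 0.59, with r = 0.28 without the 2 farthest. That relation passed in 3 of 6 other settings, with r of 0.73 to 0.77 and adjusted permutation p down to 0.0243, and without WT 397, 245 or 251. In Hypo WT libraries they had r = 0.93 (exact permutation p = 0.0872) and rho = 0.19, which rests on WT female 471, since r was -0.20 without it and -0.75 without the 2 farthest. With the trend on the intronic share removed, or within sex, it passed at r of 0.95 and 0.92 (adjusted exact permutation p = 0.0243 and 0.0338), with female 471 included. The remaining relations had r from 0.13 to 0.68 and adjusted permutation p from 0.0942 to 0.714.

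**Figure D5:**
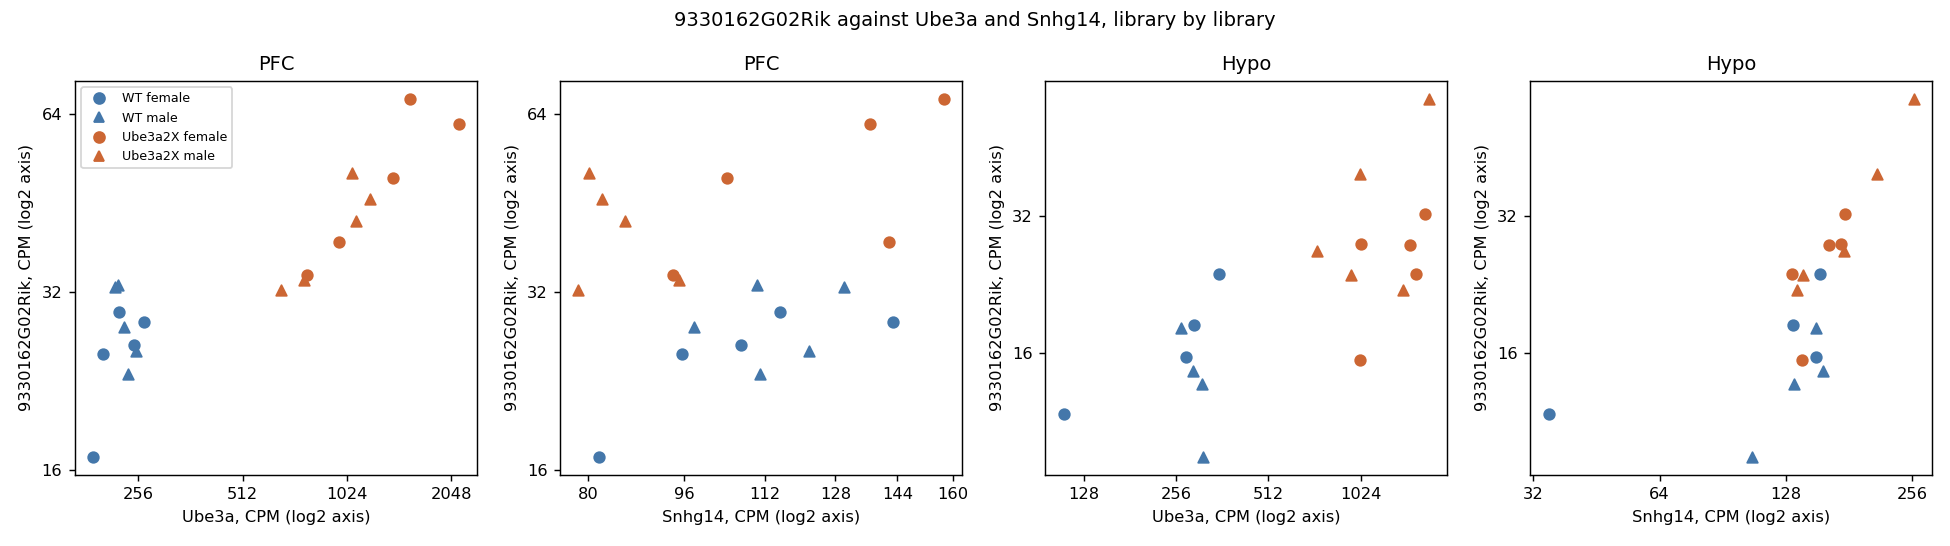
CPM of 9330162G02Rik (y axis) against Ube3a or Snhg14 (x axis) in every library, on log2 axes, with PFC in the left pair and Hypo in the right pair of panels. In Ube3a2X libraries (orange) 9330162G02Rik tracks Ube3a in the PFC (r = 0.92) and Snhg14 in the Hypo (r = 0.92).

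The annotation lists 216 genes that overlap a member, of which 208 are snoRNA genes, and 127 had 0 reads in all libraries. Of these, 3 were tested in the PFC and 2 in the Hypo, and none was called in any comparison of genotype. Over all genes, at most 0.0183% were called in these comparisons in the PFC and 0.00843% in the Hypo. A230103L15Rik differed by -0.41 in the PFC (adjusted p = 0.525, edgeR) and 0.38 in the Hypo (adjusted p = 0.949). By sex it was at -0.44 in PFC males and -0.39 in PFC females. In the Hypo it was at 0.995 in males (adjusted p = 0.534, edgeR) and -0.24 in females. The 4 that lie inside Ube3a include 3 on the − strand, Gm44562, Gm44559 and Gm44560, and so are antisense to it. Gm44560 (chr7:59286052-59289166) shares 2025 of its 3115 bases with Ube3a exons, and the other 2 share 0.

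Without a filter on low counts, their PFC genotype effects were -0.50 for Gm44562 (adjusted p = 0.591, edgeR), -0.69 for Gm44559 (adjusted p = 0.4) and 0.19 for Gm44560. With the filter, Gm44560 was at -0.13 in the PFC (adjusted p = 0.935, edgeR), with 0.58 for females and -0.85 for males. In the Hypo it was at 0.58 with the filter (adjusted p = 0.944, edgeR), with 0.02 for females and 1.14 for males (adjusted p = 0.461). In the Hypo the unfiltered values were 0.18, -0.04 and 0.45, the last with an adjusted p of 0.586 in edgeR. Gm44560 had 2.24 to 18.1 CPM in Ube3a2X and 3.04 to 9.26 CPM in WT PFC libraries, and the 3 with over 10 CPM were Ube3a2X females 272, 417 and 420. These 3 had 7.45, 8.50 and 6.08% of reads on the unexpected strand. Ube3a2X male 258 had 7.92% with 9.25 CPM of Gm44560, and the WT libraries 4.42 to 7.55%. The part of that share in the Gm44560 values was not tested.

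None of the genes set out for the pathway and the chromosomal domain was called for genotype in either tissue. UBE3A receives ubiquitin from E2 enzymes such as UBE2D1 and binds HERC2, another ubiquitin ligase, NEURL4 and MAPK6. Of 13 such partners 5 were tested in the PFC, all with positive log2 fold changes and a median of 0.07 beside 0.01 over all genes, and 0 passed, where 0.0183% of genes did. By sex, 3 were positive and 2 negative in PFC males, and likewise in PFC females. In the Hypo 8 were tested, all positive with a median of 0.08 beside -0.00, and 0 passed, where 0.00843% of genes did. By sex, 5 were positive and 3 negative in Hypo males, and all 8 positive in Hypo females. Ube2d1 differed by 0.09 in the PFC (adjusted p = 0.797) and by 0.09 in the Hypo (adjusted p = 0.949).

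Of the 7 paternally expressed genes of the domain, 3 were tested in the PFC and 4 in the Hypo. Snrpn, a splicing protein gene that shares its upstream stretch with Snhg14, differed by 0.12 in the PFC (SE 0.0542, adjusted p = 0.607) and by -0.01 in the Hypo (adjusted p = 0.993). Ndn and Magel2, which encode MAGE family proteins, differed by -0.06 and -0.10 in the Hypo (adjusted p = 0.949 for both). Of 9 neighbors expressed from both alleles, 7 were tested in the PFC, and the Hypo had 8. In the PFC 5 were positive and 2 negative (median 0.02 beside 0.01 over all genes), and in the Hypo 3 positive and 5 negative (median -0.02 beside -0.00), and 0 passed. By sex the PFC had 0 positive and 7 negative in males (median -0.09) and 6 and 1 in females (median 0.16), and the Hypo had 1 and 7 in males (median -0.08) and 5 and 3 in females (median 0.01), also with 0 passed. The one with the lowest value in the PFC was Atp10a, a lipid transporter gene next to Ube3a, at -0.23 in the PFC (SE 0.0876, adjusted p = 0.501) and -0.11 in the Hypo (adjusted p = 0.949).

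Genes whose levels varied like each member were sought over 9341 genes, as the smaller of the Pearson r in 20 PFC and 18 Hypo libraries after removal of the group means. These values are descriptions across libraries that share depth and RNA quality, with no test. For Ube3a they were Syt1, the calcium sensor of synaptic vesicles (0.74), Csrnp3 (0.74), Gm37499 (0.71) and Pcdhb5, a protocadherin (0.71). For 9330162G02Rik they were Gm33869 (0.76), Gm38020 (0.74), Snrnp48, a protein of the minor spliceosome (0.68), Ccnt2, a cyclin of transcription elongation (0.68), and Gm42979 (0.65). For Snhg14 they were Pigl (0.88), an enzyme of GPI anchor synthesis, Fut9 (0.83), a fucosyltransferase, Dhx57 (0.83), Lrp1b (0.82) and Scai (0.82).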

How the data were processed

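Stranded paired-end mRNA libraries were prepared by the authors in 1 batch, aligned with STAR to GRCm38, and counted per gene with featureCounts. The deposited table holds read counts without normalization. A deposited table of Picard measures gives RIN as a score, strand and intronic shares as a fraction, and end bias as a ratio. The entry of male 266 (PFC, WT) calls the mouse 66, so entries were joined by sample name. Genes with fewer than 100 reads in more than 1 library, then the 15% with the lowest variance, were removed. Each tissue was fitted with edgeR 4.0.16 (R 4.3.3, TMM, quasi-likelihood) with 4 groups, RIN, and 2 surrogate variables (sva 3.50.0), and p-values were adjusted by Benjamini-Hochberg. Tissues were compared in a fit of all 38 libraries with 8 groups and RIN. Log2-CPM used a prior count of 0.5. Exact permutation tests, two-sided and of genotype within sex, were run in Python 3.11.15, and correlations over 10 libraries used 100000 resamples. Alternatives used DESeq2 1.42.0, limma 3.58.1, other filters, scalings, and covariates, and left out each library. Genes named are the members, the listed pathway and domain genes, genes overlapping a member, and the 5 most like each member, of which a few are not reported here. Members, lists, and rules were chosen with earlier results of these data known. Libraries of a group differed by 15.1 to 678 times the sampling variance over 72 pairs, so the spread between libraries, not counting noise, sets the precision. That spread does not separate mice from dissection, RNA quality or library preparation. Scripts were tested on simulated data. Same-numbered samples of the tissues come from the same mouse, which was used for pairing.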

Additional observations from a re-analysis of the deposited data

Results flagged for a closer look

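Within each group of 4 or 5 libraries, the highest and lowest values of each member and ratio were set against the range of the group. Of 40 sets, 2 had a library farther out than the 95% limit, and chance gives about 1 in 20. 9330162G02Rik was lowest in PFC WT female 259, at a log2-CPM of 4.07 against 4.65 in the nearest library, a gap of 0.712 of the range and just past the limit. That library was also the lowest PFC WT library for Ube3a and Snhg14. Snhg14 was lowest in Hypo WT female 471, at 5.12 against 7.06 in the nearest library, a gap of 0.903 of the range. The same library had the highest pituitary and the lowest neuron marker sums of the Hypo, and the part of those cells in its Snhg14 value was not tested.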

How the results depend on the processing

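Over 86 results and 2353 alternative values, 2146 kept their direction and their side of the threshold and 41 changed sign. Where a cause is not named, the cause was not tested. DESeq2 called 32 genes for genotype in the PFC, 239 in males, 7 in females, 829 for the interaction and 41 for sex, and in the Hypo 5 for genotype, 17 in males, 2 in females and 661 for sex. With it 9330162G02Rik passed in the Hypo at 0.84 and in males at 1.33, in PFC females at 1.12 and in PFC males at 0.58, Ube3a in Hypo males at 1.79, and the Snhg14 interaction in the PFC at -0.55. Limma-voom called 1 gene in Hypo males, Ube3a at 1.76. With filterByExpr 1 gene was called for genotype in the PFC, 1 in males and 22 for sex, and in the Hypo 2 for genotype and 3 in females, with 9330162G02Rik at 0.84 and no longer called in the PFC and at 0.70 and called in the Hypo, and 12377 and 13516 genes between tissues in Ube3a2X and WT mice. Without a filter on low counts the calls were 1 for genotype in the PFC, 26 in males and 33 for sex, and in the Hypo 3 for genotype, 1 in males and 1 for the interaction. There 9330162G02Rik was at 0.79 in the PFC (lost), 0.66 in the Hypo and 0.83 in Hypo males (both passed), and Ube3a in Hypo females at 2.15 (lost). Without the variance filter 15 genes were called in PFC males. With RIN alone 2 genes were called in PFC females, where 9330162G02Rik passed at 1.11, 1 in PFC males, 4 for sex in the PFC and 12 in the Hypo, and the sex effect of Snhg14 in the Hypo was 0.16. Without RIN and surrogate variables there was 1 call in PFC males and 1 in Hypo males, Ube3a at 1.96, with 4 and 13 for sex in the PFC and Hypo, and sex effects of -0.071 for 9330162G02Rik in the PFC and 0.033 for it and 0.21 for Snhg14 in the Hypo. With the strand share added 1 gene was called for genotype in the PFC (9330162G02Rik at 0.80, lost), 1 in males and 105 for sex in the Hypo. Chosen after seeing the data, the intronic share as covariate gave 2 calls in PFC females (9330162G02Rik at 1.27), 1 in PFC males, 5 for sex in the PFC, 2 in the Hypo (9330162G02Rik at 0.65), 0 in Hypo females (Ube3a at 2.14, lost) and 584 for sex in the Hypo. Snhg14 was then at 0.11 in the PFC, -0.16 for the Hypo interaction, 0.0067 between tissues in Ube3a2X and -0.029 in WT mice, and 9330162G02Rik at -0.047 for sex in the PFC and -0.55 for tissue by genotype. In PFC libraries with over 4% of reads on the unexpected strand Snhg14 was at 0.15, 9330162G02Rik at 0.80 and Ube3a at 2.30, the latter pair called. With the trend on the intronic share removed, r became 0.25 for Snhg14 and 9330162G02Rik and 0.77 for Ube3a and 9330162G02Rik in Hypo Ube3a2X, -0.23 and -0.054 for the same pairs in Hypo WT, and 0.95 and 0.77 for Ube3a and Snhg14 in Hypo and PFC WT libraries. Within sex the last pair had r of 0.92 and 0.73, and without scaling factors 0.76 in the PFC. The r of Snhg14 between tissues was 0.14 within sex, and the within-mouse difference of Ube3a in Ube3a2X mice 0.41 without scaling factors. Without RIN the tissue difference of Ube3a in Ube3a2X mice was 0.14. The tissues of the same mouse were paired by the mouse. With this replicate block in 13 mice 4363 and 4379 genes were called between tissues in Ube3a2X and WT mice, Snhg14 was at 0.37 in Ube3a2X (lost) and 9330162G02Rik at -0.024 for tissue by genotype, and the log2 ratios to Ube3a were -1.36 for 9330162G02Rik and -2.04 for Snhg14. The block changed no other call.

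Leaving out each library gave 1 to 15 calls for genotype in the PFC (15 without Ube3a2X male 258), 1 to 26 in males (26 without Ube3a2X male 253), 1 to 7 in females (7 without WT female 93), 0 to 1723 for the interaction (1723 without WT female 93, 1015 without Ube3a2X male 253, 707 without Ube3a2X female 462) and 5 to 16 for sex. In the Hypo it gave 1 to 12 for genotype and 0 to 48 in males (both highest without WT male 403), 0 to 2 in females and 90 to 667 for sex. The effects ran from 0.78 to 0.92 for 9330162G02Rik in the PFC, 1.02 to 1.27 in PFC females and 0.98 to 1.47 in Hypo males (called without Ube3a2X female 272), from 2.06 to 2.24 for Ube3a in Hypo females and 1.62 to 1.88 in Hypo males, and from -0.15 to 0.010 for Snhg14 in the PFC and -0.78 to -0.31 for its interaction. Sex effects in the PFC ran from -0.050 to 0.16 for 9330162G02Rik and -0.21 to 0.073 for Ube3a. Tissue differences in Ube3a2X mice ran from -0.91 to -0.52 for 9330162G02Rik, 0.61 to 0.80 for Snhg14 and -0.12 to 0.14 for Ube3a, within mouse from 0.11 to 0.24 for Ube3a, and for Snhg14 in WT mice from 0.086 to 0.31. Between tissues r ran from 0.78 to 0.89 for Ube3a and -0.25 to 0.26 for Snhg14. Between members it ran from -0.27 to 0.28 for Ube3a and Snhg14 in Hypo Ube3a2X, -0.20 to 0.96 in Hypo WT and 0.56 to 0.87 in PFC WT (passed without 397, 245 or 251), and from -0.22 to 0.52 for Ube3a and 9330162G02Rik in PFC WT. Differences in spread ran from 0.19 to 0.28 for Ube3a and -0.049 to 0.022 for Snhg14 in the PFC, and in the Hypo from -0.0052 to 0.21 for Ube3a, -0.032 to 0.11 for 9330162G02Rik and -0.19 to 0.089 for Snhg14. From 0 to 2 neighbours differed in the order for Ube3a. At 9 mice or 8 to 10 libraries per relation only strong correlations can pass, and read positions within genes were not used here.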
